A study of Homo sapiens with 6 samples.

Results

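After *EZH2* knockdown in a mucosal melanoma line, a set of expressed protein-coding genes stood at no more than 0.5 times control in every comparison of a knockdown with a control library. A gene was taken when its smallest value in the control libraries was at least 30 and at least 2 times its largest value in the knockdown libraries. 40 genes met this rule, out of 11053 protein-coding genes with at least 30 in every control library, 16072 protein-coding genes and 30015 genes in the table.

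HMV-II is a human melanoma line of vaginal origin, grown in F10 medium with serum. The control group (Vector, 3 libraries) carried a scrambled shRNA and the knockdown group (shEZH2, 3 libraries) an shRNA against *EZH2*. Both lines were made with lentivirus and puromycin selection, so all 6 libraries share the infection and the drug, and no agent was added afterwards. There was 1 knockdown line, so loss of *EZH2* and any other effect of the shRNA or of the selected line cannot be told apart. No source used here says that the libraries came from separate cultures, so p-values measure the spread between these samples, which may be technical.

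EZH2 is the catalytic subunit of Polycomb repressive complex 2 (PRC2), which methylates lysine 27 of histone H3 and is best known for keeping genes silent. The genes described here went down when *EZH2* was depleted. Melanoma cells arise from melanocytes, pigment cells of the neural crest, and often carry transcripts also used by neurons. In bulk RNA, fewer cells of a type and less RNA per cell cannot be told apart.

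The values are counts normalized for depth by the authors, per gene and library. Depth was 13400290 to 15923029 reads assigned to genes in the Vector libraries and 16129171 to 19128939 in the shEZH2 libraries. *EZH2* itself was at 483, 437 and 552 in Vector and at 237, 247 and 225 in shEZH2, a log2 fold change of -1.04 (SE 0.14, limma adjusted p = 0.0142), and did not reach the 2-fold rule in every pair of libraries. With 20 ways to arrange the libraries, the exact two-sided permutation p for *EZH2* was 0.1, the smallest that 3 against 3 can give. The other 11 PRC2 subunits tested were not called. All 10 melanocyte markers were present, with a summed level of 76727 to 102304 in Vector and 80452 to 86851 in shEZH2. Most of that sum was *PMEL*. Among its other genes *TYR*, the rate-limiting enzyme of pigment synthesis, was called lower (log2 fold change -0.97, limma adjusted p = 0.0532) and *TYRP1* higher (1.68, limma adjusted p = 0.00317). *MLANA* was called higher (0.88, limma adjusted p = 0.214). That call was lost without Vector replicate 2 (0.39), without each shEZH2 library in turn, with a minimum mean of 50 and in edgeR. Leukocyte markers summed to 9.16 to 32.6 in Vector and 13.4 to 22.4 in shEZH2, and keratinocyte markers to 550 to 945 and 745 to 1010, the latter nearly all *CDH1* and *KRT10*. Fibroblast markers summed to 176 to 245 in Vector and 250.4 to 311 in shEZH2, nearly all *LUM* (called higher, 0.74) and *COL1A2* (called lower, -0.83, a call lost without Vector replicate 1 or shEZH2 replicate 2), with *COL1A1*, *COL3A1*, *DCN* and *PDGFRA* at 4.79 or less in every library. The part of these markers in the falls of the 40 genes was not tested. Vector replicate 2 stood apart from Vector replicates 1 and 3. The mean chi-square per gene was 117 to 119 against them and 2.14 between them, so the values it touches most are also given without it.

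The 40 genes were chosen from these same values, so their falls are descriptions and carry no test. Each SE given for them comes from that gene's own pooled replicate SD. For every other gene the SE is limma's, moderated across genes, so the SEs of the 40 and of other genes cannot be compared. Across all 15251 genes tested by limma on log2(value + 1), 7.07% were called lower and 7.55% higher at unadjusted p under 0.05 and a change of over 1.5-fold on that scale, and 1.84% and 2.28% passed adjusted p under 0.05 in each direction. The rule itself took 0.362% of the eligible coding genes. With the groups exchanged it took 90 of 11268 coding genes, or 0.799%. The fall in the mean of the 40 genes was 2.30- to 8.26-fold, with a median of 3.02-fold, and was over 3-fold in 20 genes and over 4-fold in 5. On the log2 scale it ran from -3.02 to -1.20 with a median of -1.52, while the median over all genes tested was 0.04. Without Vector replicate 2 the folds ran from 2.16 to 7.66 with a median of 2.56, where the rule itself keeps every fold at 2 or more.

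**Figure D1:**
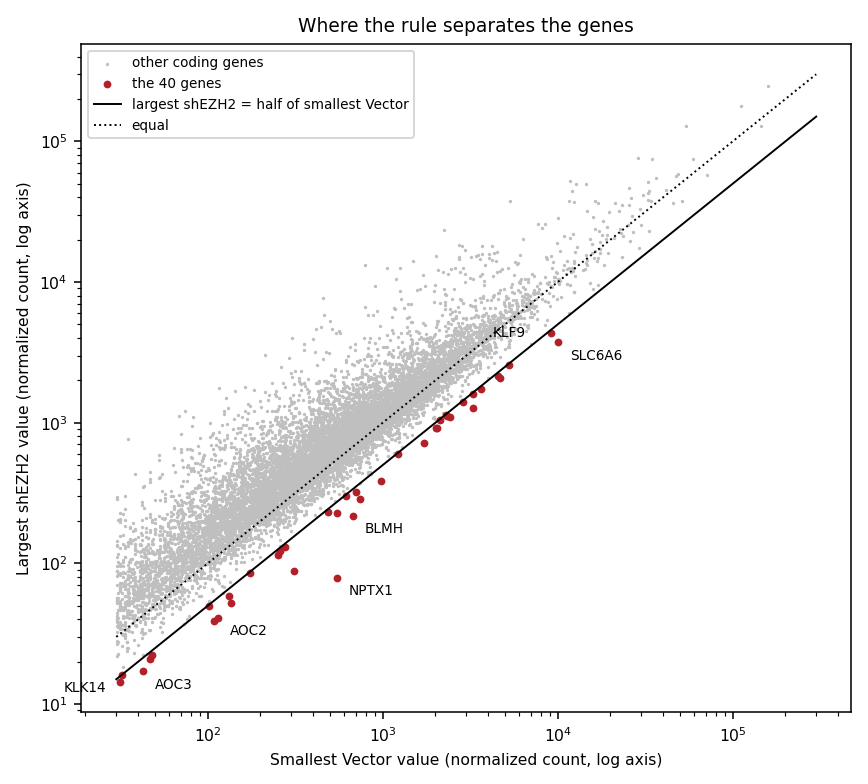
Each point is a protein-coding gene with at least 30 normalized counts in every Vector library, with its smallest Vector value on the horizontal log axis and its largest shEZH2 value on the vertical log axis. The 40 genes lie at or under the solid line of the 2-fold rule, and *NPTX1* lies farthest below it.

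At the edge of the ratio rule, *KLK14* had a smallest Vector value 2.003 times its largest shEZH2 value, *TPR* 2.003 and *GOLGB1* 2.02. Just outside stood *CEP120* at 1.99 and *KCNJ14* at 1.98. At the edge of the level rule, the smallest Vector value was 31.6 in *EBF1*, 32.4 in *KLK14* and 42.8 in *AOC3*, and just outside it was 25.5 in *TAS2R3*, 24.1 in *VEGFD* and 20.9 in *XKR4*. The neighbours outside hold a second centrosomal gene (*CEP120*) and a second bitter taste receptor (*TAS2R3*), families that also have a gene inside.

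The genes spanned a wide range of expression. The Vector mean ran from 32.9 (*KLK14*) to 11086 (*SLC6A6*) with a median of 785, with 18 genes over 1000 and 5 under 100. They lay on 18 chromosomes, with 5 each on chromosomes 3 and 10 and 4 on chromosome 17. Only *AOC2* and *AOC3* lay within 100 kb of each other.

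**Figure D2:**
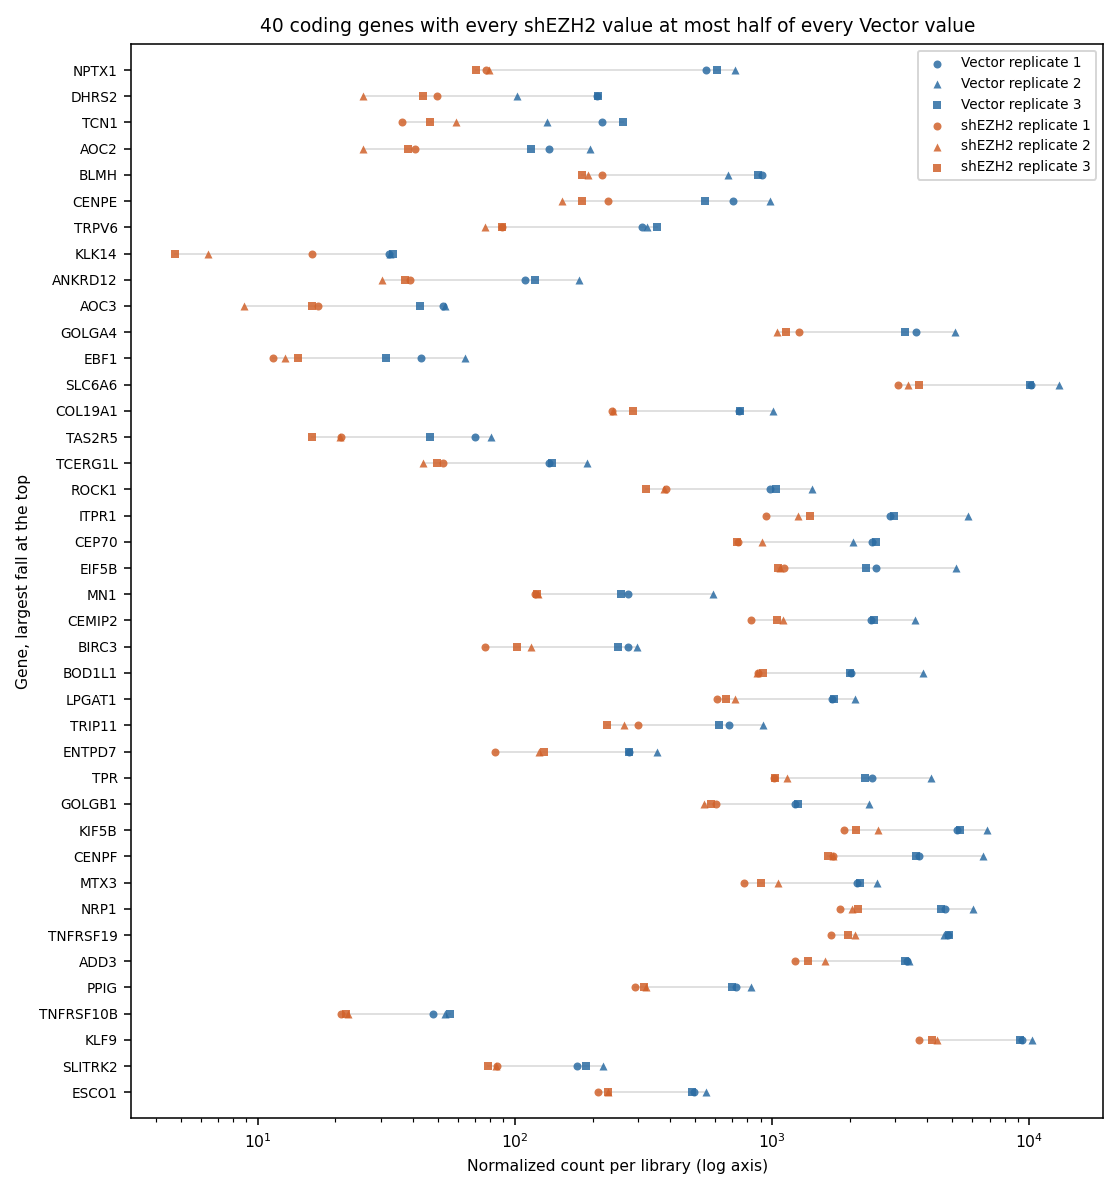
Normalized counts of the 40 genes in each library on a log axis, blue for Vector and orange for shEZH2, with a marker shape for each replicate number and genes in order of their fall. The groups are apart in every row, and the Vector replicate 2 triangle is the highest Vector point in 32 rows.

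The secreted binding proteins were *NPTX1*, *TCN1* and *COL19A1*. *NPTX1* encodes neuronal pentraxin 1, a secreted protein that gathers AMPA-type glutamate receptors at synapses. It was at 550.0, 714 and 609 in the Vector libraries and at 77.1, 79.1 and 70.7 in the shEZH2 libraries. The 3 shEZH2 values lay close together and every Vector value was far above them. The log2 fold change was -3.02 (SE 0.12, n = 3 per group) and -2.92 without Vector replicate 2, and no other gene of the 40 fell as far. *NPTX1* lies on chromosome 17 from 80467148 to 80477843 on the minus strand (GRCh38, identifier ENSG00000171246). Of 4 other genes tested within 100 kb of *NPTX1*, limma called 1 lower and 0 higher. That gene was *RPTOR* (-0.65, SE 0.19, limma adjusted p = 0.0968), and its call was lost without Vector replicate 2 (-0.46).

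The relatives of *NPTX1* moved in different directions. *NPTX2*, the other secreted neuronal pentraxin, was at 86.8, 67.5 and 82.5 in Vector and at 185, 179.7 and 192 in shEZH2, and was called higher (log2 fold change 1.23, SE 0.17, limma adjusted p = 0.0133). *NPTXR*, the membrane-bound pentraxin receptor, was at 880.5, 1134 and 848 in Vector and at 598, 512 and 548 in shEZH2, and was called lower (-0.78, SE 0.16, limma adjusted p = 0.0404). The groups did not overlap in either gene, and both calls at unadjusted p held without each library in turn, while the limma adjusted p reached 0.125 for *NPTX2* and 0.208 for *NPTXR*. Per kilobase of gene length, the mean level of *NPTX1* went from 93.1 in Vector to 11.3 in shEZH2 and that of *NPTX2* from 26.2 to 61.5, so the order of these 2 genes changed. Of 6 genes tested in the list of pentraxins and AMPA receptor genes, *NPTX1* among them, *NPTXR* was lower and *NPTX2* and *CNIH2* higher. *CNIH2*, an AMPA receptor auxiliary subunit, rose from 19.9, 10.5 and 14.3 to 65.7, 51.1 and 55.4 (1.91, SE 0.30, limma adjusted p = 0.0200).

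*TCN1* encodes haptocorrin, a secreted carrier of cobalamin (vitamin B12). It was at 219, 133 and 262 in Vector and at 36.2, 59.1 and 46.8 in shEZH2. Vector replicate 2 was the lowest control library here, and the log2 fold change was -2.06 (SE 0.35) with it and -2.34 without it. Among the 13 other cobalamin genes tested, 0 were called lower by limma, 0 by edgeR and 0 by DESeq2, and 0 were lower at unadjusted p under 0.05 with no fold threshold. *CUBN*, *LMBRD1* and *MMAB* were called higher at unadjusted p, by 0.59 to 0.90 on the log2 scale, each call was lost without at least 2 of the 6 libraries in turn, and *TCN2*, the carrier that delivers cobalamin to cells, had a log2 fold change of 0.11. *COL19A1*, a fibril-associated collagen chain, was at 745, 1004 and 748 in Vector and at 238, 239.6 and 286 in shEZH2. It overlaps *LMBRD1* on the other strand, which had a Vector mean of 169.8 and went the other way.

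The enzymes held 8 genes, with log2 fold changes from -2.08 to -1.44. *AOC2* and *AOC3* encode copper amine oxidases, which turn primary amines into aldehydes, ammonia and hydrogen peroxide. AOC3 is also known as vascular adhesion protein. *AOC2* was at 135, 196 and 115 in Vector and at 40.9, 25.6 and 38.2 in shEZH2 (log2 fold change -2.05, SE 0.30). *AOC3* was at 52.3, 53.6 and 42.8 in Vector and at 17.1, 8.78 and 16.2 in shEZH2 (-1.79, SE 0.30). In both genes the groups were far apart, and shEZH2 replicate 2 was the lowest library. The *AOC3* values rest on 42 to 50 reads per Vector library and 11 to 18 per shEZH2 library.

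The 2 genes lie head to tail on chromosome 17 of GRCh38 on the plus strand, *AOC2* (ENSG00000131480) from 42844600 to 42850707 and *AOC3* (ENSG00000131471) from 42851184 to 42858130, 476 bases apart. Their sequences were not compared, and whether the counting split or moved reads between them was not tested. Of the 8 other genes tested within 100 kb of *AOC2*, 0 were called lower by limma, edgeR or DESeq2, and 1 was lower at unadjusted p under 0.05 alone. *WNK4*, a kinase that regulates ion transport, was called higher (0.92, SE 0.17, limma adjusted p = 0.0292), and *PSME3*, *BECN1* and *EZH1* were not called. Among other amine oxidases, *LOXL3* fell from 1287, 1189 and 1204 to 766, 762 and 849.7 (-0.63, SE 0.12, limma adjusted p = 0.0368). *LOXL2* rose from 265, 244 and 276 to 488, 449.6 and 468 (0.84, SE 0.13, limma adjusted p = 0.0201). *LOX*, *MAOA* and *SMOX* did not pass the test.

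*BLMH* encodes bleomycin hydrolase, a papain-like cytosolic aminopeptidase that inactivates the drug bleomycin. It was at 909.8, 674 and 879 in Vector and at 218, 192 and 181 in shEZH2. The 3 knockdown values lay within a narrow band and Vector replicate 2 was the lowest control. The log2 fold change was -2.04 (SE 0.16) and -2.18 without that library. *BLMH* (ENSG00000108578) lies on chromosome 17 of GRCh38 from 30248195 to 30292056 on the minus strand. Of 23 other papain-like proteases and aminopeptidases tested, 0 were called lower by limma, edgeR or DESeq2 (1 at unadjusted p under 0.05 alone), and *DPP3* alone was called higher, by 0.59 on the log2 scale, a call lost without 4 of the 6 libraries in turn. Of 2 other genes tested within 100 kb of *BLMH*, limma called 1 lower and 0 higher. *NSRP1*, a splicing regulator 61719 bases from *BLMH*, was called lower, from 251, 271 and 277 to 176, 155 and 154 (-0.72, SE 0.14, limma adjusted p = 0.0380). *CPD* was not called (-0.30).

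*DHRS2* encodes a short-chain dehydrogenase. It was at 208, 101 and 211 in Vector and at 49.5, 25.6 and 43.9 in shEZH2, with replicate 2 the lowest of both groups. The log2 fold change was -2.08 (SE 0.45), the second largest fall, and -2.42 without Vector replicate 2. Among the 28 other short-chain dehydrogenases tested, 0 were called lower by limma, edgeR or DESeq2 (1 at unadjusted p under 0.05 alone), and limma called 4 higher. *HSD17B7* (1.06) and *BDH1* (1.07) passed adjusted p under 0.05, and *DHRS1* (0.61) and *DHRS12* (0.81) passed unadjusted p alone and lost the call without 4 of the 6 libraries in turn. *KLK14*, a secreted serine protease, was at 32.4, 32.6 and 33.6 in Vector and at 16.2, 6.39 and 4.77 in shEZH2. Its shEZH2 values rest on 5 to 17 reads and differed 3.39-fold among themselves, the widest spread of the 40 genes. The other enzymes were *CEMIP2*, a cell surface hyaluronidase, *ENTPD7*, a nucleotidase of internal membranes, and *LPGAT1*, a lysophospholipid acyltransferase, with log2 fold changes of -1.50, -1.44 and -1.47. *ENTPD7* overlaps *CUTC* on the same strand, which had a Vector mean of 192.

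The promoters of 3 enzyme genes are printed because these genes fell by similar amounts and differ in CG content. They run from 250 bases before to 50 bases after the annotated start, from RefSeq on GRCh38.p14, 5′ to 3′ on the gene's strand, with CG pairs and the letters TATAAA in capitals.
AOC2, chr17:42844330-42844629, plus strand: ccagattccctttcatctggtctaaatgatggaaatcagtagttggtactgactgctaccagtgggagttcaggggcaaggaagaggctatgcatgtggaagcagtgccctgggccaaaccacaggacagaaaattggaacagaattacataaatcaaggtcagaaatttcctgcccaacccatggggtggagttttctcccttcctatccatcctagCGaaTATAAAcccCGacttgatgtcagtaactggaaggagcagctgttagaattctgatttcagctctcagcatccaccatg
DHRS2, chr14:23629865-23630164, plus strand: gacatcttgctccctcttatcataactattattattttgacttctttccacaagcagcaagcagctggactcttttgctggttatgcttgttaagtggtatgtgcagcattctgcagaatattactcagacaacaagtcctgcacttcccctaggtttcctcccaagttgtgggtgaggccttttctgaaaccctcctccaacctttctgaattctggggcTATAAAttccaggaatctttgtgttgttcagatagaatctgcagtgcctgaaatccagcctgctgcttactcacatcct
BLMH, chr17:30291895-30292194, minus strand: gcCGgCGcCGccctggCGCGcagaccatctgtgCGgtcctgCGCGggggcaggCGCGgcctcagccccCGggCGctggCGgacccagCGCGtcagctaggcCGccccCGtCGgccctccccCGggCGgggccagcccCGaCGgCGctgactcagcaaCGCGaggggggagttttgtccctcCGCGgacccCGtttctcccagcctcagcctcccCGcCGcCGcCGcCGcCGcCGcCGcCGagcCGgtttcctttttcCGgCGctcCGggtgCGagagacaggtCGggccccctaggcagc
The *AOC2* window holds 2 CG pairs and TATAAA beginning at position -28 from the start, and the *DHRS2* window holds 0 CG pairs and TATAAA at -29. The *BLMH* window holds 43 CG pairs and no TATAAA on either strand. Of 35116 promoters in that table, 43.6% hold fewer than 10 CG pairs and 11.5% hold TATAAA on either strand. Among the 8894 eligible coding genes with an entry these shares are 9.02% and 4.76%. An entry was found for 31 of the 40 genes (77.5%), so their shares do not cover the whole set. Of these 31, 10 (32.3%) held fewer than 10 CG pairs and 4 (12.9%) held TATAAA on either strand. Among the 78 genes of the exchanged rule with an entry, the shares were 30.8% and 11.5%. These differences were not tested.

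The channels, transporters and receptors held 6 genes. *SLC6A6* encodes the taurine transporter and had the highest level of the 40. It was at 10162, 13032 and 10066 in Vector and at 3074, 3379 and 3728 in shEZH2 (log2 fold change -1.70, SE 0.15). The lowest control library was well above the highest knockdown library. Limma called none of the 4 *SLC6A* relatives tested, with log2 fold changes from -0.51 to 0.20. EdgeR and DESeq2 called 0 lower, and 1 was lower at unadjusted p under 0.05 alone.

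*TRPV6*, an epithelial calcium channel, was at 311, 325 and 356 in Vector and at 88.6, 76.7 and 88.8 in shEZH2 (-1.95, SE 0.09), with narrow groups and a value of -1.96 without Vector replicate 2. *ITPR1*, the calcium release channel of the endoplasmic reticulum, was at 2867, 5743 and 2965 in Vector and at 946, 1255 and 1406 in shEZH2. Vector replicate 2 was 1.97 times the mean of the other Vector libraries in *ITPR1*, and its log2 fold change was -1.62 with it and -1.30 without it. *ITPR2* (-0.45) and *ITPR3* (-0.52) were not called, nor were *TRPV1* and *TRPV2*. *NRP1*, a co-receptor for semaphorins and VEGF, was at 4691, 6054 and 4531 in Vector and at 1832, 2045 and 2158 in shEZH2 (-1.33, SE 0.15), and *NRP2* was not called (-0.30). *SLITRK2*, a neuronal adhesion protein, had a log2 fold change of -1.22. Its relative *SLITRK5* was called higher at unadjusted p (0.76), and that call was lost without shEZH2 replicate 3.

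*TAS2R5* is a bitter taste receptor gene with low counts. It was at 70.1, 80.3 and 46.8 in Vector and at 20.9, 20.8 and 16.2 in shEZH2 (-1.69, SE 0.26). Its neighbours within 100 kb on chromosome 7 included 3 that limma called lower, of 6 tested. *TAS2R3*, at 26.1, 81.5 and 25.5 in Vector and at 3.81, 7.99 and 7.64 in shEZH2, had a log2 fold change of -2.44 (SE 0.53, limma adjusted p = 0.0490). *TAS2R4*, at 66.9, 154 and 55.0 in Vector and at 27.6, 32.7 and 20.05 in shEZH2, had -1.62 (SE 0.40, limma adjusted p = 0.0720). The pseudogene *TAS2R6P* had -1.75 (SE 0.44, limma adjusted p = 0.0758). Vector replicate 2 was the highest library in all 3, and without it the values were -1.90, -1.18 and -1.44, each still called. The mitochondrial gene *SSBP1*, 2294 bases from *TAS2R5*, was not called, and neither was *TAS2R14* (0.24). The sequences of these receptor genes were not compared, and whether reads were split among them was not tested.

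The genes of the TNF receptor family, of apoptosis inhibition and of mitochondria were *TNFRSF10B*, *TNFRSF19*, *BIRC3* and *MTX3*. *TNFRSF19*, a TNF receptor family member, was at 4826, 4651 and 4849.5 in Vector and at 1691, 2091 and 1969.6 in shEZH2 (-1.32, SE 0.09). *TNFRSF10B*, a receptor for the death ligand TRAIL, was at 48.1, 53.6 and 56.0 in Vector and at 20.9, 22.4 and 21.96 in shEZH2 (-1.23, SE 0.07). It overlaps *RHOBTB2* on the other strand by 67 bases, and *RHOBTB2* had a Vector mean of 512, and no source used here states that the counting used strand. *BIRC3*, an inhibitor of apoptosis, had -1.50 (SE 0.19), and *MTX3*, a metaxin of the mitochondrial outer membrane, had -1.34 (SE 0.15). Limma called none of the 7 *TNFRSF*, 3 *BIRC* and 2 *MTX* relatives tested, while edgeR and DESeq2 each called 1 *BIRC* gene lower.

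The golgins are long coiled-coil proteins that tether vesicles to the Golgi apparatus. *GOLGA4* was at 3609.8, 5111 and 3289 in Vector and at 1267, 1042 and 1132 in shEZH2 (-1.78, SE 0.21). *GOLGB1* (giantin) was at 1220.3, 2367 and 1257 in Vector and at 604, 544 and 576 in shEZH2 (-1.42, SE 0.31). *TRIP11* (GMAP-210) was at 681, 917 and 618 in Vector and at 301, 266 and 228 in shEZH2 (-1.46, SE 0.21). Vector replicate 2 was the highest library in each of these golgins, 1.41 to 1.91 times the mean of the other controls. Without Vector replicate 2 the values were -1.59 for *GOLGA4*, -1.11 for *GOLGB1* and -1.30 for *TRIP11*. Of the 10 *GOLGA* relatives tested, *GOLGA7B*, which is not a golgin tether but a palmitoylation cofactor, was called lower, from 1906, 1472 and 1955 to 819.8, 795 and 749 (-1.16, SE 0.15, limma adjusted p = 0.0122). The other golgins tested, among them *GOLGA1*, *GOLGA2*, *GOLGA3* and *GOLGA5*, were not called. *GOLGA8N* was called lower too when Vector replicate 2 was left out (-0.81, limma adjusted p = 0.134).

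The genes of mitosis, chromosomes and the nuclear pore were *CENPE*, *CENPF*, *BOD1L1*, *ESCO1*, *CEP70* and *TPR*. *CENPE*, the kinesin of kinetochores, was at 704, 981 and 548 in Vector and at 229, 153 and 182 in shEZH2 (-1.96, SE 0.30). *CENPF*, a kinetochore protein of late cell cycle, was at 3709, 6582 and 3632 in Vector and at 1726, 1726 and 1642 in shEZH2 (-1.39, SE 0.28). The shEZH2 values of *CENPF* were nearly equal and Vector replicate 2 was 1.79 times the other controls. Other centromere genes were looked at after their values were seen. Of 18 further *CENP* genes tested, 13 had a log2 fold change above 0, the range was -0.77 to 1.11 with a median of 0.28, and limma called 1 lower and 1 higher. Without Vector replicate 2, 9 of the 18 were above 0, the range was -0.69 to 0.56 with a median of 0.07, and 1 was called lower and 0 higher by limma.

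*CEP70*, a centrosomal protein, was at 2434, 2054 and 2539 in Vector and at 732, 914 and 727 in shEZH2 (-1.57, SE 0.14). Vector replicate 2 was its lowest control. Of 34 tested genes that share the CEP symbol, 10 were called lower and 0 higher by limma (1 was higher at unadjusted p under 0.05 alone, and edgeR and DESeq2 called 0 higher), and 3 passed adjusted p under 0.05 (*CEP120*, *CEP290* and *CEP83*). 8 were called lower without Vector replicate 2. *CEP120*, which helps to build centrioles, was at 737, 919.8 and 743 in Vector and at 271, 369.7 and 274 in shEZH2 (-1.40, SE 0.18, limma adjusted p = 0.0111). *BOD1L1*, which protects stalled replication forks, *TPR*, the filament protein of the nuclear pore basket, and *ESCO1*, the cohesin acetyltransferase, had log2 fold changes of -1.49, -1.43 and -1.20.

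The cytoskeletal genes were *ROCK1*, *KIF5B* and *ADD3*. *ROCK1*, a kinase that promotes actomyosin contraction, was at 977, 1422 and 1031 in Vector and at 387, 379 and 324 in shEZH2 (-1.64, SE 0.19). Its closest relative *ROCK2* was at 1528, 2741 and 1529 in Vector and at 966, 1159 and 1139 in shEZH2 and was called lower at unadjusted p (-0.78, SE 0.24, limma adjusted p = 0.119). That *ROCK2* call was lost without Vector replicate 2 (-0.49) and without shEZH2 replicate 1. *KIF5B*, the heavy chain of the cargo motor kinesin-1, was at 5232, 6834 and 5354 in Vector and at 1895, 2582 and 2123 in shEZH2 (-1.40, SE 0.18). Of 33 *KIF* relatives tested, 5 were called lower and 2 higher by limma, with 3 lower without Vector replicate 2, and *KIF20B* passed adjusted p under 0.05 (-0.98). *ADD3*, an adducin that joins spectrin to actin, was at 3338, 3414 and 3293 in Vector and at 1223, 1601 and 1373 in shEZH2 (-1.27, SE 0.11).

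The genes of transcription, splicing and translation were *EBF1*, *KLF9*, *MN1*, *ANKRD12*, *TCERG1L*, *PPIG* and *EIF5B*. *KLF9*, a Krüppel-like repressor that responds to glucocorticoid and thyroid hormones in other tissues, had the second highest level. It was at 9329.7, 10239 and 9181 in Vector and at 3735, 4368 and 4164 in shEZH2 (-1.23, SE 0.08). The controls lay within a narrow band, as did the knockdown libraries. Of 13 other Krüppel-like factors tested, 0 were called lower by limma, edgeR or DESeq2 (1 at unadjusted p under 0.05 alone) and limma called 3 higher, all with adjusted p under 0.05. They were *KLF2* (1.45, SE 0.17, limma adjusted p = 0.00867), *KLF14* (1.44, SE 0.23, limma adjusted p = 0.0212) and *KLF10* (0.91, SE 0.14, limma adjusted p = 0.0203).

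*EBF1*, a transcription factor known from B cells, was at 42.9, 64.0 and 31.6 in Vector and at 11.4, 12.8 and 14.3 in shEZH2 (-1.72, SE 0.30). *ANKRD12*, a nuclear protein that binds receptor coactivators, was at 109, 177 and 119 in Vector and at 39.0, 30.3 and 37.2 in shEZH2 (-1.87, SE 0.24). *EIF5B*, which joins the ribosomal subunits at the start codon, was at 2539, 5158 and 2320.4 in Vector and at 1114, 1075 and 1050.2 in shEZH2. It overlaps *REV1* on the other strand, which had a Vector mean of 480.1. Its log2 fold change was -1.53 (SE 0.37) and -1.17 without Vector replicate 2. *MN1*, a transcriptional regulator, had the highest Vector replicate 2 value relative to the other controls, 2.21 times, and log2 fold changes of -1.51 with and -1.13 without that library. *TCERG1L*, a relative of a transcription elongation regulator, and *PPIG*, a cyclophilin with an SR-rich tail, had -1.64 and -1.26.

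Over all stems of gene symbols, the relatives gave a small share of further calls. A relative was any gene whose symbol matched that of 1 of the 40 up to its last number, a rule that can group products unrelated in sequence (CEP, TRIP, EIF, ANKRD, KIF). Of 252 such genes outside the 40, 203 were tested, 21 (10.3%) were called lower and 14 (6.90%) higher by limma, against 7.07% and 7.55% of all genes. Of the 21, 10 came from CEP. 7 lower and 5 higher calls also passed adjusted p under 0.05, and 11 of the 40 genes had no relative. Leaving out Vector replicate 2 gave 18 relatives called lower and 17 higher. *ANKRD1*, known as a cardiac ankyrin repeat protein, had the largest value among the relatives, 4.16 higher on the log2 scale.

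**Figure D3:**
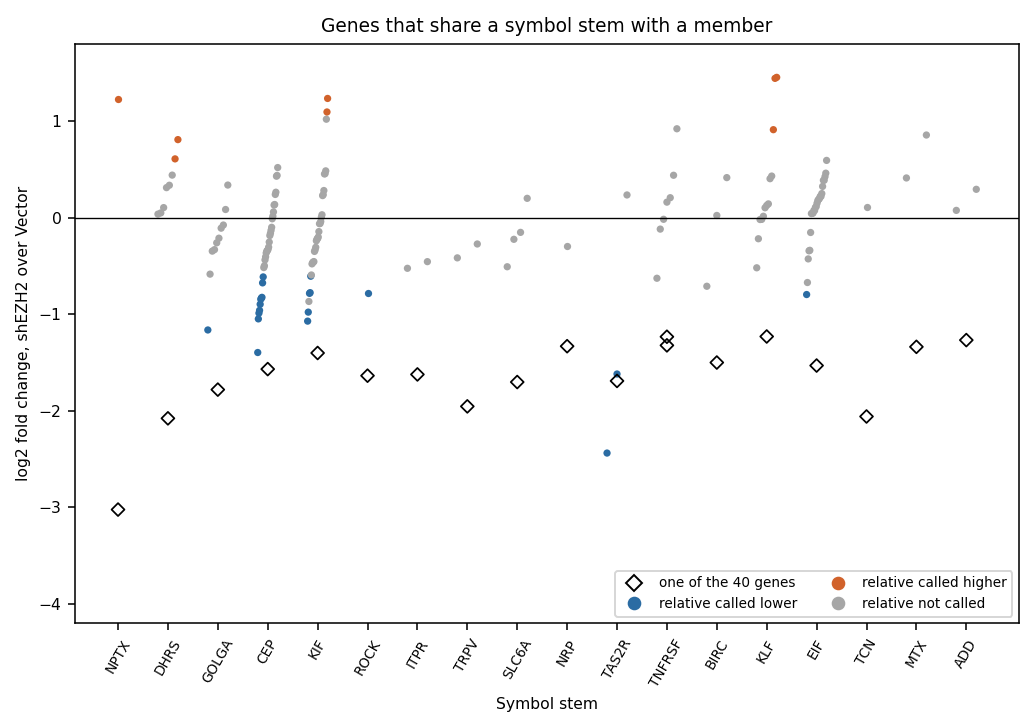
Log2 fold change of shEZH2 over Vector for the genes that share a symbol stem with 1 of the 40, for 18 of the 27 stems. Open diamonds are the 40 genes, blue and orange points are relatives that limma called lower or higher, and grey points were not called. Most relatives lie between the diamonds and 0 or above 0, and of the stems shown, those called lower are in CEP, KIF, TAS2R, GOLGA, ROCK and EIF.

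A group within the 40 had a coding sequence rich in adenine, a property that the rule did not use. On canonical GENCODE transcripts, 14 of the 40 (35%) had a coding sequence with over 35% adenine, against 5.07% of the 10982 eligible coding genes with a transcript and 0 of 89 genes of the exchanged rule. These 14 genes were *CENPE*, *CENPF*, *BOD1L1*, *ESCO1*, *CEP70*, *TPR*, *GOLGA4*, *GOLGB1*, *TRIP11*, *ROCK1*, *KIF5B*, *ANKRD12*, *EIF5B* and *PPIG*. All 6 genes of mitosis, chromosomes and the nuclear pore, all 3 golgins and 2 of the 3 cytoskeletal genes were among them. Lysine and glutamate codons are rich in adenine, and coiled coils hold many of these residues. The thresholds of 35% and 6000 bases were set with the values known.

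Coding length also differed. The median was 2278.5 bases in the 40, 1446 in eligible genes and 1293 in the exchanged set, and 8 of the 40 (20%) exceeded 6000 bases against 2.97% and 2.25%. *GOLGB1* (9792 bases), *CENPF* (9342) and *BOD1L1* (9153) were the longest. The enzyme genes were mixed, with a median of 22.2% adenine against 26.0% in eligible genes. *BLMH* (28.5%), *CEMIP2* (28.2%) and *LPGAT1* (30%) lay above the eligible median. *NPTX1* (20.4%), *AOC2* (19.5%), *AOC3* (18.9%) and *MN1* (17.8%) lay at the low end of the 40. So did *SLC6A6* (19.5%), *KLK14* (19.8%) and *DHRS2* (20.4%). The median log2 fold change was -1.48 in the 14 adenine-rich genes and -1.63 in the other 26, and -1.23 and -1.45 without Vector replicate 2.

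Adenine-rich coding genes outside the 40 were also counted, with no test of the difference from other genes. Of 596 tested coding genes with over 35% adenine that were not members, 125 (21.0%) were called lower and 22 (3.69%) higher by limma, with a median log2 fold change of -0.22. Of 11725 others, 5.603% were called lower and 8.27% higher, with a median of 0.07. Without Vector replicate 2, 16.6% of the adenine-rich genes were called lower against 4.25% of the others, with medians of -0.25 and 0.02, and 5.64% of all genes tested were called lower. Of the 356 tested genes with coding sequences over 6000 bases that were not members, 20.2% were called lower, and without Vector replicate 2 this was 10.1%. Their median log2 fold change went from -0.41 to -0.09 without it.

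Vector replicate 2 moved with gene length in the same way. It was the highest Vector library in 32 of the 40 genes and the lowest in 5. Its value over the mean of Vector replicates 1 and 3 had a median of 1.29 in the 40, from 0.484 in *DHRS2* to 2.21 in *MN1*, and 0.961 in eligible genes, and it was above 1.5 in 27.5% of the 40 and 12.6% of eligible genes. Across genes, this ratio had a Spearman correlation with the gene length of the table of 0.54 in the 40 and 0.64 in eligible genes, all from the same 3 libraries. In the 14 adenine-rich genes the median ratio was 1.52, and in the other 26 it was 1.22. Among adenine-rich genes outside the 40, the median log2 ratio was -0.03, and among genes with long coding sequences it was 0.88. The rule rests on the smallest Vector value, so it drops genes that are low in Vector replicate 2. The high counts and ratios of that library in the 40 are therefore partly fixed by the rule. Leaving out a library can only widen the rule. Without Vector replicate 2, 15 further genes met it, none of which had over 35% adenine or over 6000 coding bases. Those 15 had a median coding length of 933 bases. Of all 55 genes that met the rule without Vector replicate 2, 25.5% had over 35% adenine and 14.5% over 6000 coding bases.

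**Figure D4:**
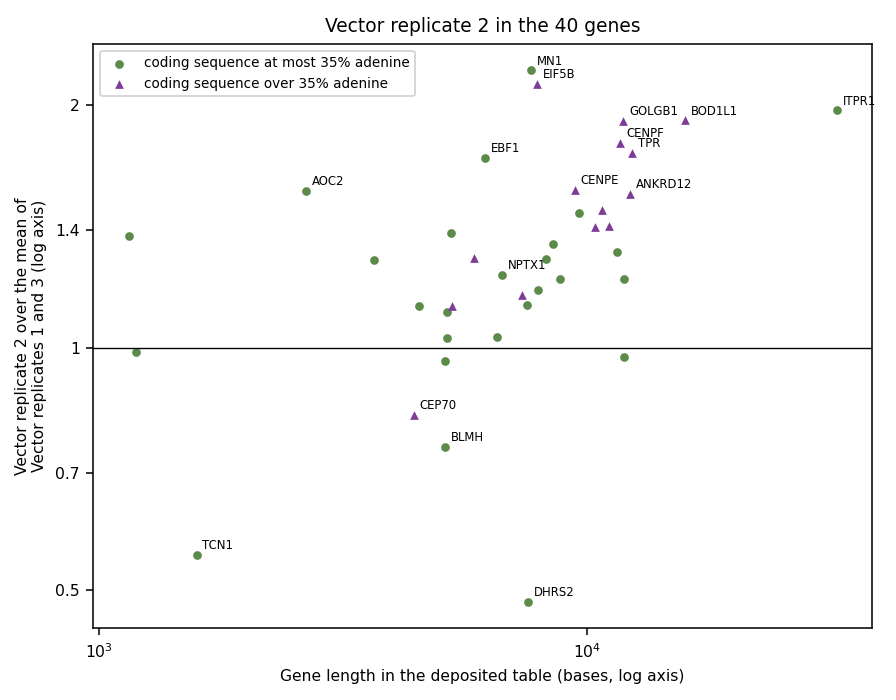
Vector replicate 2 divided by the mean of Vector replicates 1 and 3 (log axis) against the gene length of the deposited table (log axis) for the 40 genes. Purple triangles are genes with over 35% adenine in the coding sequence, and 7 of the 40 genes lie below 1, with *DHRS2*, *TCN1*, *BLMH* and *CEP70* the lowest.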

How the data were processed

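RNA-seq of 3 Vector and 3 shEZH2 libraries of HMV-II cells was analysed. The deposited table holds, per gene, a signal that the authors made by dividing gene counts by size factors, and the submitters' processing notes name featureCounts 1.5.0-p3, DESeq2 1.20.0 and hg19. Of 20633 genes compared, 47.7% shared an end with RefSeq genes on GRCh38, matched by symbol. With GENCODE genes on GRCh37, matched by gene identifier, 0.708% did. Coordinates are therefore given as GRCh38. The table's columns of fold changes and p-values hold the authors' own comparison and were not used. Whole reads were recovered from the steps of the values (100% of values whole within 1e-06), and totals per library are sums of these.

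The members were chosen with earlier results of these data known, and so were the gene lists, functional groups and sequence thresholds. Named genes were *NPTX1*, *BLMH*, *AOC2* and *AOC3*, the 12 largest falls, the 6 highest Vector means, the 3 nearest each threshold inside and outside, relatives of these, members within 100 kb of another and *EZH2*. Others were named by function. The rule leaves out 1 further gene by name, and 1 gene just outside the ratio threshold is not reported here. Genes named for their relatives' or neighbours' calls, and the *CENP* genes, were chosen after values were seen.

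Genes with a mean of at least 10 over the 6 libraries were tested with limma 3.58.1 (trend) on log2(value + 1) in R 4.3.3, with Benjamini-Hochberg adjustment over all genes, and the script was tested on simulated data. Fold changes of genes are on that log2 scale, which understates changes of low genes, and fold values are ratios of means. Read floors and spreads cover counting error and these libraries only. Alternatives were edgeR 4.0.16, DESeq2 1.42.0, other scalings, filters and pseudocounts, and each library left out. Coding features came from GENCODE canonical transcripts by sequence alone. Relatives were defined by symbol because no protein table was used here.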

Additional observations from a re-analysis of the deposited data

How the results depend on the processing

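All 180 values of the 18 fully named genes of the 40, over 10 alternatives each, moved by less than the replicate SD. They lay between -3.11 and -1.11. With a library left out, the rule fixes the direction. Leaving out 1 of 3 libraries cannot move a value by as much as that SD, so those alternatives do not test the size. The number of genes meeting the rule was 171 at a ratio of 1.5 and 3 at a ratio of 3, which widens or narrows the rule itself. It was 27 when scaled by total reads and 39 with TMM scaling, all of them among the 40. Total-read scaling moved the median of all genes by 0.05. It was 44 to 56 with each library left out, where fewer libraries have to pass. Genes called lower ranged from 773 to 1318 and higher from 849 to 1525 with each library left out, and relatives called lower from 18 to 29 and higher from 11 to 17. Requiring adjusted p under 0.05 left 279 lower, 345 higher, and 7 lower and 5 higher relatives. *EZH2* stayed called, from -1.12 to -0.96, with limma adjusted p from 8.25e-05 to 0.128 with each library left out, and above 0.05 when any library but Vector replicate 2 was left out.

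With the replicate number as a block, 1112 genes were called lower and 1322 higher, with 24 and 16 relatives and *EZH2* at -1.04 (limma adjusted p = 0.0377). The numbers did not pair the samples, as the correlations of same-numbered deviations were 0.28, 0.22 and -0.11. Adjusted p was followed in 21 genes outside the 40 with limma adjusted p under 0.05, *EZH2* not among them. Of these, 20 rose above 0.05 with some library left out, with *ANKRD1* the exception. The highest limma adjusted p was 0.231, in *ANKRD13C*, which is not described above, followed by 0.217 in *NSRP1*. Genes under about 20 reads per library, such as *KLK14* and *AOC3* in shEZH2, have the least precise values.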
